A study of Rattus norvegicus with 2 samples.

Results

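The S100 calcium-binding protein genes were examined in RNA sequenced from rat urine. The members were the annotated genes, listed by NCBI gene ID, whose RefSeq symbol is S100a1, S100a4, S100a6, S100a8, S100a9, S100a10, S100a11, S100a13, S100a14 or S100a16. Of these 10 genes, 9 were found among 16484 annotated genes in a table of 113011 features, and S100a14 was not analysed here. The libraries came from Sprague Dawley rats, with the age given as 8 weeks (post natal day 56). Whether this was the age at surgery or at collection of urine is not stated. The single library labelled UUO was from rats whose right ureter had been ligated. The single library labelled WT was from rats with the same surgery and no ligation. Unilateral ureteral obstruction (UUO) is a surgical model of kidney scarring, here at 2 weeks after surgery. Both groups shared strain, age and collection of urine through a catheter in the ureter. The number of animals behind each library is not given in the sources used here. Each group being a single library, the differences below could not be set against replicate spread, and no test was made.

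S100 proteins are small EF-hand proteins that mostly act as dimers and bind partner proteins when calcium rises. S100a8 and S100a9 form the calprotectin heterodimer, which is abundant in the cytosol of neutrophils and monocytes and acts on innate immune receptors once released. S100a6, S100a10, S100a11, S100a14 and S100a16 are expressed in many epithelia, S100a4 in fibroblasts and leukocytes, and S100a1 is best known from heart muscle. Most of the genes form a cluster on 1 chromosome. S100a1 to S100a9 span 203125 bp of chromosome 2 in the rn5 coordinates of the deposited table.

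The set of start-site windows used here (250 bases before to 50 after the start, build GRCr8) held 7 of the 10 members. It held no window for S100a1, S100a8 and S100a10, which says nothing of whether their start sites are annotated elsewhere. A TATA box, spelled TATAAA and searched on both strands, was present in the windows of S100a9 and S100a4 alone. The windows without it included those of S100a6, the most abundant member, and S100a11, which was also higher in UUO urine by 2-fold. These letters occur in 14.2% of the 33469 windows of all genes. Letters for AP-1 (TGANTCA) and C/EBP (TTGCNNAA), searched in the same way, were in 0 of the 7 windows, against 7.33% and 10.6% of all windows. A match describes letters in a window and is not a tested site, and no match speaks only of these letters. Windows of 3 members are shown to let the presence and absence of this exact spelling be seen, with its letters in capitals. The matches begin at position -42 in S100a9 and -31 in S100a4, counted from the start site. The windows are chr2:178490573-178490872 on the minus strand for S100a9, chr2:178388279-178388578 on the plus strand for S100a4 and chr2:178398287-178398586 on the plus strand for S100a6.
S100a9: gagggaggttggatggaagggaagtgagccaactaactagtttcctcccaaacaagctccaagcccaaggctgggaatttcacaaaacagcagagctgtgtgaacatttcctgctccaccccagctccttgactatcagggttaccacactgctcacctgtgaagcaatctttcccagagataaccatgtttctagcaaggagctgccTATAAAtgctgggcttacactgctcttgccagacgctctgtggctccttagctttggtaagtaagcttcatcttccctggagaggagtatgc
S100a4: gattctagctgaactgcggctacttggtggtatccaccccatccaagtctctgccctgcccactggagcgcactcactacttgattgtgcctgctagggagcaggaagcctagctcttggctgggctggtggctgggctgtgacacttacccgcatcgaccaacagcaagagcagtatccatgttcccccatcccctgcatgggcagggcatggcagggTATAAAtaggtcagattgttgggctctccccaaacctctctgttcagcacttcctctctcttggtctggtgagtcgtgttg
S100a6: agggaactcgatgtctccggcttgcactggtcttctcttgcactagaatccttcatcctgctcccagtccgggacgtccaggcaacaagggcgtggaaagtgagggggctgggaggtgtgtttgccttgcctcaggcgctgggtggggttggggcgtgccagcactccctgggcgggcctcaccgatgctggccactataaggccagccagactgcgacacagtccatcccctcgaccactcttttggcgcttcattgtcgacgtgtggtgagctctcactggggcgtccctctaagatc

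Levels are given as FPKM (fragments scaled to transcript length and to the fragment total of the library), 1 value per gene and library as deposited. A gene was counted when its FPKM was at least 1 in either library. A difference was the difference of log2(FPKM + 1), UUO minus WT, and was counted when it was 1 or more in size (2-fold). The table names its columns UrRf and Urc. They were read as UUO and WT from the series title and the headings of the study's urine lists, and every direction rests on that reading. In rows of assembled transcripts the FPKM values moved in steps of whole fragments, which gave a normalising total of 2100000 fragments for WT and 2432000 for UUO urine. One fragment on a 1000 bp transcript was worth 0.544 FPKM in WT against 0.498 in UUO urine.

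The leukocyte genes S100a8 and S100a9 were seen in UUO urine and listed at 0 in WT urine. S100a8 (gene ID 116547, chromosome 2, 209508165 to 209508692) reached 26.96 FPKM in the UUO library and was listed at 0 in the WT library. S100a9 (gene ID 94195, chromosome 2, 209531409 to 209534093) reached 71.7 FPKM in the UUO library and was listed at 0 in the WT library. The S100a9 level was 2.66 times that of S100a8 in UUO urine, and together they made up 2.75% of the summed FPKM of the members. No fold is given against a library listed at 0.

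S100a1, the member best known from heart muscle, had the same pattern. S100a1 (gene ID 295214, chromosome 2, 209330968 to 209336336) reached 21.98 FPKM in UUO urine and was listed at 0 in WT urine. Over all 16484 annotated genes, 4166 were listed at 0 in WT urine only and 182 in UUO urine only. Genes at the UUO levels of S100a1, S100a8 and S100a9 were rarely at 0 in WT urine. Of 1262 annotated genes with an FPKM from 20 to 50 in UUO urine, 48 (3.8%) were listed at 0 in WT urine. From 50 to 100 it was 7 of 357 genes (1.96%), S100a9 among them.

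**Figure D1:**
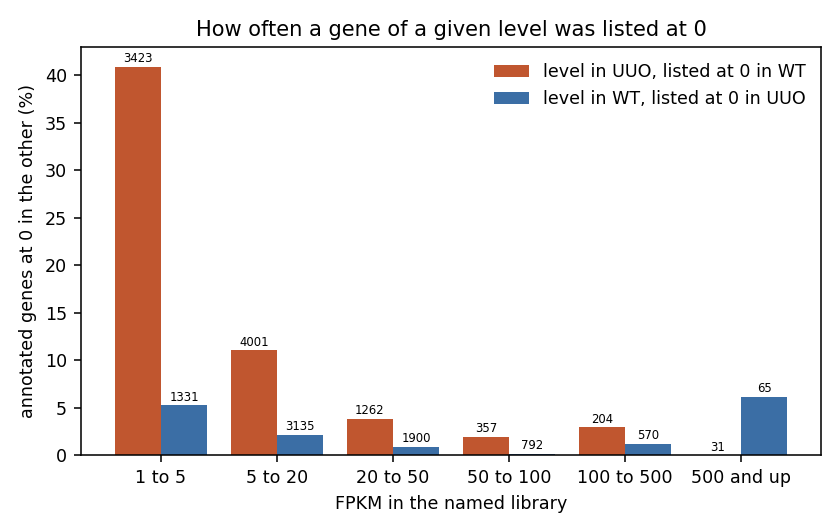
Percentage of annotated genes listed at 0 in one library (y axis) by their FPKM in the other (x axis), with the number of genes above each bar. Of genes with an FPKM of 1 to 5 in UUO urine, 40.9% were listed at 0 in WT urine, against 3.8% at 20 to 50 FPKM, where S100a8 and S100a1 lie.

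The limit of detection bears on S100a8 most, because its locus is short. Over its whole span of 527 bp, its FPKM in UUO urine would stand for 23.1 fragments, and a spliced transcript would hold fewer. In WT urine 3 fragments on 527 bp would give an FPKM of 3.55, and more on a shorter transcript. Whether that limit holds for the listed 0 is not known, because genes used by every cell, such as Myh9, were also listed at 0 in both libraries. A zero in this table can be a failed estimate, and it was read here as listed at 0 and no more. The length correction fitted to the steps was 125 bp in WT and 175 bp in UUO urine, and FPKM of transcripts as short as those of S100 genes depends on it.

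S100a4, also known as fibroblast-specific protein and expressed in leukocytes too, had the widest difference among members above 0 in both libraries. S100a4 (gene ID 24615, chromosome 2, 209431368 to 209433680) was at 25.1 FPKM in WT against 170 in UUO urine, 6.78-fold higher, a log2 difference of 2.71. Its rank among annotated genes went from 2760 in WT to 119 in UUO urine. S100a11, a partner of annexin A1 that is expressed in most epithelia, was at 62.8 FPKM in WT against 159 in UUO urine, 2.52-fold higher, a log2 difference of 1.32. S100a11 (gene ID 445415) lies on chromosome 2 from 210998953 to 211004364. RefSeq lists 5 pseudogenes of S100a11 and 1 of S100a10, which can share reads with their parents, so those levels are uncertain.

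The remaining epithelial members differed by less than 2-fold between the libraries as deposited. S100a6, called calcyclin, was by far the most abundant, at 3753 FPKM in WT against 2877 in UUO urine, a log2 difference of -0.38. S100a6 (gene ID 85247, chromosome 2, 209441148 to 209442605) ranked 3 among annotated genes in WT and 6 in UUO urine. It held 91.3% of the summed FPKM of the members in WT and 80.1% in UUO urine.

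S100a16, a widely expressed member, was at 194.9 FPKM in WT against 196 in UUO urine, a log2 difference of 0.01. S100a10, the p11 subunit that joins annexin A2 in a tetramer and does not bind calcium itself, was at 73.7 FPKM in WT against 68.7 in UUO urine, a log2 difference of -0.10. These genes have the IDs 361991 (chromosome 2, 209356144 to 209361935) and 81778 (chromosome 2, 210966293 to 210975001). The differences of all 3 genes were within 2-fold.

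S100a13, which takes part in the release of fibroblast growth factor, was listed at 0 in both libraries. S100a13 (gene ID 295213) lies on chromosome 2 from 209336485 to 209342980. A noncoding database transcript at the same locus, NONRATT029819, was at 1.04 FPKM in WT and 0.872 in UUO urine, so reads fell there. Between the loci of S100a13 and S100a16, where GRCr8 places S100a14, the table lists 3 entries of a noncoding RNA database. One of them, NONRATT029821 (chromosome 2, 209344879 to 209350244), was at 92.0 FPKM in WT against 136 in UUO urine. It was chosen after its values were seen, and whether its reads belong to S100a14 was not tested.

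In UUO urine the members ranked S100a6, S100a16, S100a4, S100a11, S100a9, S100a10, S100a8 and S100a1 from the highest FPKM to the lowest. In WT urine the order was S100a6, S100a16, S100a10, S100a11 and S100a4. Without replicates it is not known which neighbours in these orders differ beyond their spread. Without S100a6 the members summed to 357 FPKM in WT against 714 in UUO urine, 2.00 times higher. With S100a6 the sums were 4109 and 3592 FPKM.

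By the 2-fold limit 5 of the 9 members found were higher in UUO urine (S100a1, S100a4, S100a8, S100a9 and S100a11), 0 were lower, 3 were within the limit and 1 was at 0 in both. Over 9853 annotated genes counted, 2534 (25.7%) were higher and 3600 (36.5%) lower. After rescaling to equal sums these were 3622 (35%) and 2157 (20.8%), and after the median ratio 4207 (39.8%) and 1652 (15.6%), while the members stayed at 5 and 0. After rescaling to an equal 75th percentile 79.2% of genes were higher and 3.6% lower, and 8 members were higher. Each of the 8 members above 0 had an FPKM of at least 20 in a library. Among 3643 annotated genes at that level, 306 (8.4%) were higher and 2117 (58.1%) lower. S100a1, S100a8 and S100a9 reached that level through UUO urine alone, which fixes their direction, so their count cannot be weighed against these shares. Of the 5 members above 0 in both libraries, S100a4 and S100a11 were higher. The level lies just under that of the lowest member, S100a1. The median difference of the 8 members was 2.02, against -0.51 for all annotated genes. It rested on the 3 members at 0 in WT urine, which were counted through UUO urine alone. Over the 5 members above 0 in both libraries the median was 0.01, against -0.84 over 7784 such annotated genes.

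**Figure D2:**
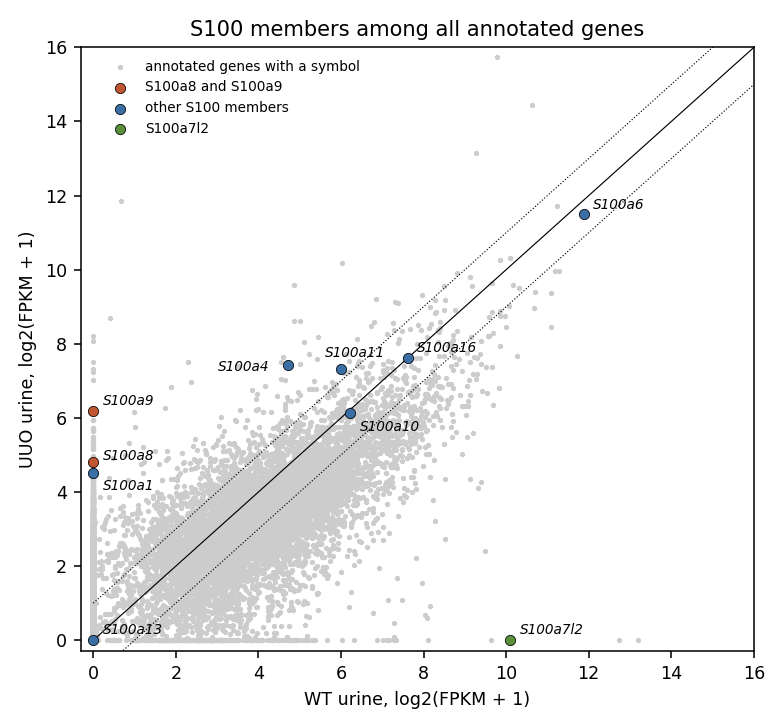
Level of each annotated gene in WT (x axis) and UUO urine (y axis), both as log2(FPKM + 1), with equality as a solid line and 2-fold as dotted lines. S100a4 and S100a11 lie above the upper dotted line, S100a6, S100a10 and S100a16 between the lines, and S100a7l2 on the x axis at 10.09.

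The mean difference of S100a8 and S100a9 was 5.49, and the median of the 6 other members above 0 was 0.67. The leukocyte pair thus exceeded the other members by 4.83. A factor shared by a library nearly cancels in this contrast, which was 4.80 to 4.82 under 3 rescalings. It depended on the pseudocount, since the pair was at 0 in WT urine, and was 8.11 with a pseudocount of 0.1 and 1.85 with 10. S100a1 stood with the pair and not with the other members, so the split by cell type did not separate the genes cleanly.

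Some genes of the neutrophil, general leukocyte and macrophage lists were at 0 in WT urine only, each at a lower UUO level than S100a9. Others, given below, were above 0 in WT urine. Of 14 genes listed for neutrophils, 7 were above 0 in UUO urine, 0 in WT urine, and 7 at 0 in both. Lcn2, among the 7 in UUO urine, is not restricted to neutrophils. Over all 16484 annotated genes, 4166 (25.3%) were listed at 0 in WT urine only and 182 in UUO urine only. Of the 7 genes, the cathelicidin gene Camp and the lipocalin gene Lcn2 were highest in UUO urine, at 9.81 and 8.63 FPKM. The decoy receptor gene Il1r2 was at 3.67 and the receptor gene Csf3r at 3.06 FPKM. The collagenase gene Mmp8 was at 1.84, the gelatinase gene Mmp9 at 1.79 and the chemokine receptor gene Cxcr2 at 0.149 FPKM in UUO urine. Zeros in WT urine were common at such levels, with 40.9% of annotated genes of 1 to 5 FPKM in UUO urine, where 4 of the 7 genes lie, and 11% of those of 5 to 20 FPKM, where Camp and Lcn2 lie. The granule genes Mpo, Elane, Prtn3, Ltf and Ngp, with Cd177 and Fpr1, were at 0 in both libraries.

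Of 14 genes of leukocytes in general, 10 were seen in UUO urine and listed at 0 in WT, with the signalling adaptor Tyrobp highest among them at 20.7 FPKM, against 25.3% of all annotated genes. The other 4 were not at 0 in WT urine and had a median difference of -1.43. The actin-bundling gene Lcp1 was at 149.9 FPKM in WT against 20.3 in UUO urine, and 3 genes of this list were lower in UUO urine by 2-fold, which fell to 2, 1 and 0 under rescaling to equal sums, the median ratio and the 75th percentile. Of 10 macrophage genes, 5 were at 0 in WT urine only, against 25.3% of all annotated genes. The 5 genes were at 0.536 to 22.3 FPKM in UUO urine, and 2 of these 5 were below 1 FPKM there. The 3 macrophage genes above 0 in both libraries had a median difference of -0.53, and C1qb was at 22.9 FPKM in WT against 15.1 in UUO urine. The lysozyme gene Lyz2 was at 7.55 FPKM in WT against 26.5 in UUO urine, and C1qa at 0 against 22.3. Mrc1 and Cd163 were at 0 in both. In bulk urine RNA, more cells of a type and more RNA per cell cannot be told apart.

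Red blood cell genes were also higher in UUO urine, and unlike the pair most were above 0 in WT urine. They summed to 3208 FPKM in WT against 88944 in UUO urine, 27.7 times higher. By 2-fold 8 of the 10 genes found were higher and 0 lower, against 25.7% and 36.5% of all annotated genes counted. The beta-globin gene Hbb led with 54777 FPKM in UUO urine, and the embryonic gene Hbe1 was at 0 in both. The part of blood, neutrophils or macrophages in the S100a8 and S100a9 levels was not tested.

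The receptors for released S100a8 and S100a9 gave few differences. Tlr4 was at 3.31 FPKM in WT against 0.141 in UUO urine and was the 1 gene of 7 that was lower by 2-fold. Ager, which encodes the receptor RAGE, was at 0 in WT and at 2.30 in UUO urine, and was the 1 gene that was higher, but its locus holds 97 features. Basigin (Bsg) was 83.6 in WT and 115.8 in UUO urine, Myd88 13.7 and 9.23, and Cd14 2.05 and 1.31. Cd36 was at 0.142 in UUO and 0 in WT urine, and Ly96 at 0 in both. The median of the 5 genes counted was -0.40. Over all annotated genes counted, 25.7% were higher and 36.5% lower by 2-fold.

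Genes listed as S100 partners were found on both sides of the 2-fold limit, in shares near those of all annotated genes. Not all of them are partners of the epithelial members. The list also held calmodulin genes, and binding was not tested. Of 13 genes of the list 3 were higher, 5 lower and 4 within 2-fold, against 25.7% higher and 36.5% lower over all annotated genes. The median of the 12 counted was -0.34. The lower count was 5, 4 and 0 under the 3 rescalings, and the higher count 4, 4 and 7. Anxa2, which encodes the partner of S100a10, was at 36.3 FPKM in WT against 109 in UUO urine, a log2 difference of 1.56, while S100a10 itself had a log2 difference of -0.10. Anxa1, which encodes a partner of S100a11, was at 96.1 FPKM in WT against 80.7 in UUO urine. Anxa5 was at 11.3 FPKM in WT against 32.9 in UUO urine, and the presynaptic gene Syt1 was at 1.27 in UUO and 0 in WT urine.

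Among the lower genes of this list, Cacybp, which encodes the calcyclin-binding protein, was at 106.5 FPKM in WT against 30.7 in UUO urine. Anxa6 had 57.6 and 10.9, and the growth factor gene Fgf1 34.1 and 4.16 FPKM in WT and UUO urine. The calmodulin gene Calm3 had 384.6 and 82.3, and the calmodulin gene Calm2 4.79 and 0.933. The scaffold gene Ahnak was at 51.7 in WT and 103 in UUO urine, just inside the limit with a log2 difference of 0.98. Anxa11, an annexin that binds S100a6, was at 60.6 and 47.6 FPKM. Myh9, the nonmuscle myosin that S100a4 binds, was listed at 0 in both libraries at a locus of 20 features.

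Epithelial genes were present in both libraries. Of 12 general and tubular epithelial genes 0 were at 0 in either library, 3 were higher and 1 lower, and the keratin genes Krt8 and Krt19 were at 578 and 357 FPKM in WT against 748 and 752 in UUO urine. Of 8 urothelial genes found, 2 were higher and 2 lower, with Psca, a surface antigen gene, at 557 in WT and 97.6 and the uroplakin gene Upk3a at 312 in WT and 466 in UUO urine, and Krt13 at 0 in both. Of 10 fibroblast and matrix genes, set beside S100a4, 3 were higher and 0 lower, and Postn and Col1a2 were at 0 in both. Vim, the vimentin gene, was at 7.08 in WT and 24.6 in UUO urine. The higher genes other than Vim were at 0 in WT urine. The collagen genes Col1a1, at 9.20 in WT and 13.6 in UUO urine, and Col3a1, at 17.8 and 13.4, were within 2-fold. Over all annotated genes counted, 25.7% were higher and 36.5% lower. Median differences were 0.43, 0.58 and 1.09 for the epithelial, urothelial and fibroblast genes counted. The last 2 medians included genes at 0 in WT urine that were counted through UUO urine alone, and over genes above 0 in both libraries they were -0.042 (6 genes) and 0.070 (4 genes).

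**Figure D3:**
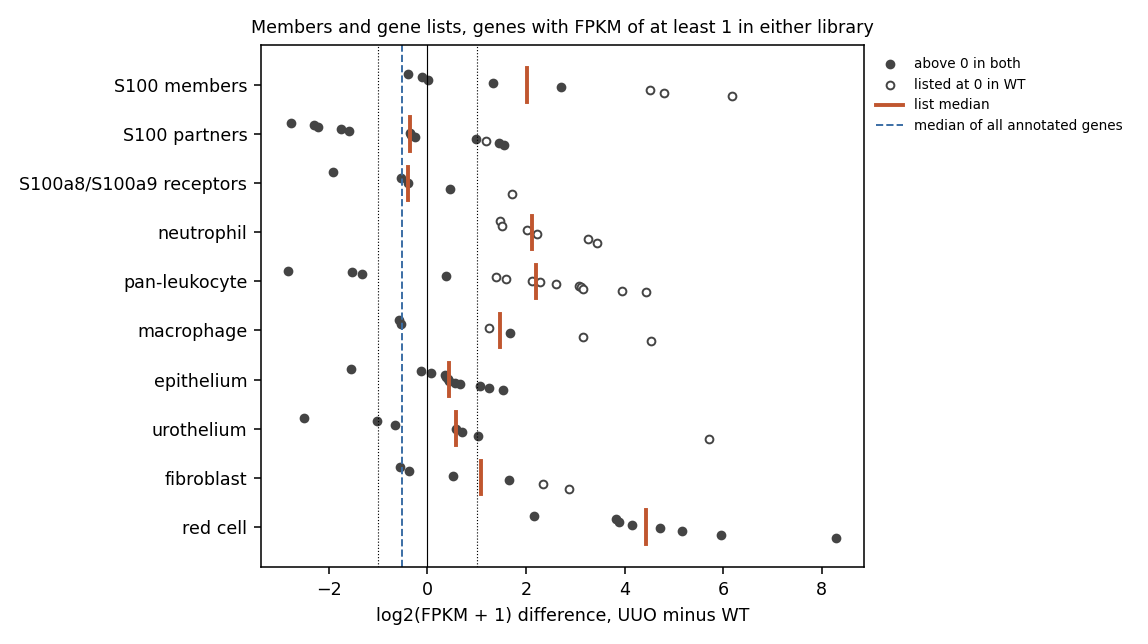
Difference of each gene of each list on the log2(FPKM + 1) scale, UUO minus WT, with open points for genes listed at 0 in WT urine, orange bars for list medians and dotted lines at 2-fold. The 8 S100 members have a median of 2.02, the neutrophil genes 2.12, the leukocyte genes 2.20, the macrophage genes 1.47 and the red cell genes 4.44, while the median of all annotated genes is -0.51. All 6 neutrophil genes counted, and the genes shown as open points, were counted through UUO urine alone, which fixes their sign.

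A further 8 S100 genes outside the member list were found, and 1 of them went the other way. S100a7l2 (gene ID 499657, chromosome 2, 213572803 to 213575700), a gene named for its likeness to S100a7, reached 1088 FPKM in WT urine and was listed at 0 in the UUO library. It ranked 15 among annotated genes in WT urine. Of 65 annotated genes with an FPKM of at least 500 in WT urine, 4 (6.15%) were listed at 0 in UUO urine. S100g, the calbindin of kidney and gut, was at 0 in WT and at 3.56 in UUO urine, at a locus of 12 features. S100a5 was at 0 in WT and at 2.44 in UUO urine. S100a3, S100a7a, S100b, S100vp and S100z were listed at 0 in both.

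The annotated genes nearest to S100a8 in the plane of WT and UUO levels were Arl6ip5, Plaat3 and Tbca, at 27.07, 26.5 and 27.6 FPKM in UUO urine. Those nearest to S100a9 were Gpnmb, Alox15 and Scand1, at 74.1, 74.7 and 60.9 FPKM. All 6 were listed at 0 in WT urine. Likeness was the distance on the log2(FPKM + 1) scale over 2 libraries, at most 0.03 for S100a8 and at most 0.23 for S100a9.

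Other scalings moved single members more than the contrast, and moved the median of all annotated genes from -0.51 to 0.15, 0.46 and 1.98. At the same time the median of the 8 members went from 2.02 to 2.64, 2.91 and 4.67. S100a6 and S100a10 were slightly lower in UUO urine as deposited and higher after each of 3 rescalings. S100a4, S100a8, S100a9, S100a1 and S100a11 stayed higher by at least 2-fold under all 6 changes of pseudocount, scaling and locus. S100a8, S100a9 and S100a1 were at 0 in WT urine, so no pseudocount or scaling could make them lower.

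**Figure D4:**
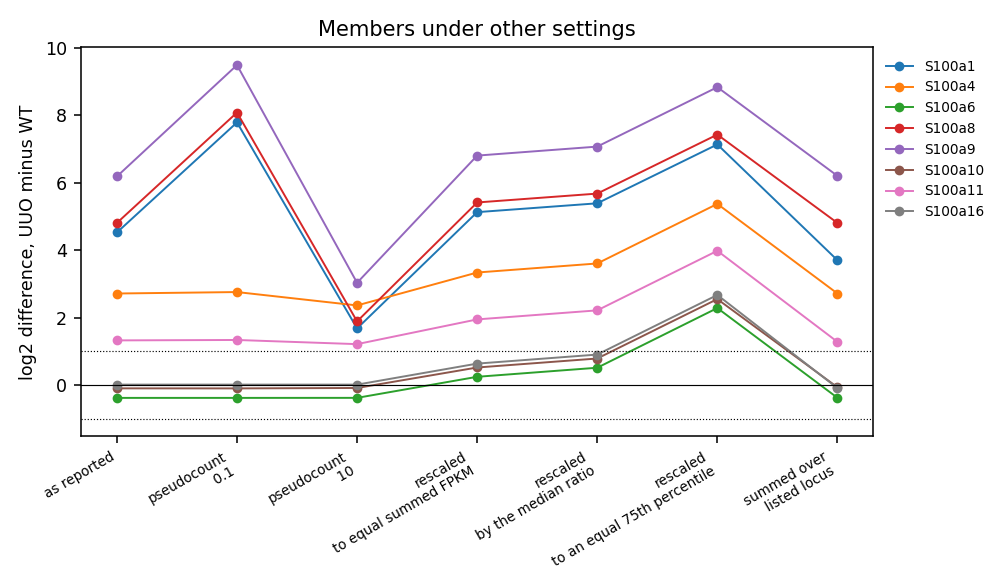
Log2 difference of each of the 8 members above 0 (y axis, UUO minus WT) as reported and under 6 other settings (x axis), with dotted lines at 2-fold. S100a4 stays between 2.36 and 5.37 and S100a11 between 1.21 and 3.98, while S100a8, S100a9 and S100a1 fall with a pseudocount of 10.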

How the data were processed

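Urine RNA of 1 WT and 1 UUO library was analysed. Per the submitters' processing notes, reads were aligned to rn5 with TopHat2 2.0.9 and Bowtie2 2.0.6, and Cufflinks 2.1.1 and Cuffdiff 2.1.1 gave the values. The study's methods describe adapter and quality filtering and paired-end reads, and a strand-specific kit for kidney RNA. How strand entered the estimates is not given in the sources used here, so overlapping antisense entries cannot be told apart. The authors deposited 1 FPKM value per feature and library. The deposited table also holds the authors' log2 fold changes, test statistics, p-values and q-values, which were not used. Other columns of per-sample values numbered 0.

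Symbols came from RefSeq (GRCr8), which matched 16329 of 16484 number-only IDs. Coordinates of features are those of the deposited table. Differences, counts and medians were computed with Python 3.11.15, numpy 2.4.6 and pandas 2.3.3, after checks on simulated data. Features with a span of 400 to 1200 bp, alone at their locus, were fitted as whole fragments. Of values under 20 fragments, 98.9% of 88 in WT and 99.9% of 3411 in UUO urine came within 0.1 of a whole number.

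Named genes were all members, all further S100 genes, the partner, receptor and neutrophil lists, up to 3 high genes of each other list with those at 0 in both, and the 3 genes nearest to S100a8 and S100a9. S100pbp, which encodes a binding protein, was left out of the family, and the values of 1 gene of the partner list are not reported here. The members and the 9 gene lists were chosen with earlier results of these data known. Pseudocounts, filters, limits, scalings and sums over loci were varied.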

Additional observations from a re-analysis of the deposited data

How the results depend on the processing

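No paired analysis was possible because a single library stands for each group. The members' median kept direction and side of 2-fold under all alternatives run, although over the 5 members above 0 in both libraries the median was 0.01. The contrast of the leukocyte pair did so too. This is no check on it, since the pair was at 0 in WT urine and a shared factor nearly cancels. The size of the contrast was 8.11 with a pseudocount of 0.1 and 1.85 with 10. The members' counts of 5 higher and 0 lower kept within 1.5 times, with 1 exception. After rescaling to an equal 75th percentile 8 members were higher. That rescaling multiplies UUO values most, and 79.2% of annotated genes were then higher and 3.6% lower. S100a6 reversed to 0.24, 0.51 and 2.28 and S100a10 to 0.52, 0.78 and 2.55 under rescaling to equal sums, to the median ratio and to the 75th percentile. With the features of its locus summed, S100a16 reversed to -0.092; such sums count the gene and transcript entries of a noncoding RNA both. Under the same 3 rescalings the partner median reversed to 0.27, 0.54 and 2.30, the receptor median to 0.049, 0.30 and 2.01 and the median of all annotated genes to 0.15, 0.46 and 1.98. The epithelial median moved to 1.05, 1.32 and 3.08 and the urothelial median to 1.20, 1.47 and 3.24. With a pseudocount of 10 the medians of neutrophil, leukocyte, macrophage, fibroblast and further S100 genes moved to 0.42, 0.44, 0.51, 0.40 and 0.31. With no filter on low values the neutrophil, macrophage, fibroblast, receptor and further S100 medians were 0.10, 0.79, 0.10, 0 and 0, since genes at 0 entered. The further S100 median was 0.80 with loci summed and reversed to -10.09 at an FPKM of at least 5, where S100a7l2 alone was left. The causes of other shifts were not tested. A pseudocount of 10 left 370 annotated genes higher and 1770 lower, and a 4-fold limit 1059 and 1185. What limit depth sets on the zeros is not known, since a zero here can be a failed estimate.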

Other observations

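The chromosome 2 region from S100a1 to S100vp holds 25 annotated genes in the table, 14 of them S100 genes. The other 11 include genes of the skin barrier, such as the involucrin gene Ivl and the late cornified envelope gene Lce1e. Of these 11, 1 had an FPKM of at least 1 in either library. This was Sprr1a, which encodes a small proline-rich protein of the cornified envelope, at 291 in WT and 88.9 in UUO urine, and it was chosen after its values were seen. Ivl was at 0.292 in UUO and 0 in WT urine. With 1 library per group these values have no replicate check.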
